A study of Mus musculus with 12 samples.

Results

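*Cdkn1a*, *Mdm2*, *Trp53inp1*, *Bbc3*, *Ccng1*, *Phlda3*, *Eda2r*, *Sesn1*, *Bax* and *Fas* are genes that p53 is known to induce. They were taken by gene name from the count table, 10 of its 55397 genes, and all 10 were among the 18264 genes with enough counts to be tested. p53 is a transcription factor that is kept low by its inhibitor MDM2 and that accumulates when DNA is damaged or replication stalls. It then switches on genes that stop the cell cycle, that limit p53 itself, that start apoptosis through mitochondria or death receptors, or that adjust metabolism. In cultured neurons and glia the same genes respond to DNA-damaging drugs, and the cultures described here had all received one. Cytosine arabinoside (Ara-C) is a nucleoside analogue that is built into DNA, stalls replication and kills dividing cells.

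The data are bulk RNA sequencing of primary brain cultures from newborn (P0) pups, 3 *Myt1l* (+/−) animals (HET replicates 505, 506 and 508) and 3 *Myt1l* (+/+) animals (WT replicates 510, 511 and 513), collected at day in vitro 11. The *Myt1l* allele carries a 7 bp deletion in exon 6 that shifts the reading frame, is a germline mutation and does not lead to loss of its mRNA, so *Myt1l* counts cannot check the genotype labels. All cultures of both genotypes were given 2 µM Ara-C at 3 days after plating, and no culture without it was analysed here. Tissue and strain are cortex and C57BL/6J in the labels, while the methods name hippocampus or cortex as the tissue of such cultures and C57BL/6N as the strain the founders were bred to. Each animal had 2 libraries, whose counts were summed, so n = 3 animals per genotype. CPM are counts per 1000000 counts of a library size corrected by TMM, the scaling of edgeR. A gene is called at an adjusted p under 0.1 over all tested genes.

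Totals were 40642699 to 43745258 counts per (+/−) animal and 43129302 to 52833161 counts per (+/+) animal. Both libraries of an animal differed from each other by 0.11% to 11.7% of their mean for the 10 genes. 1 animal stood apart from its label. All are labelled male, but *Xist*, the RNA of the silenced X chromosome, had 18805 counts in (+/+) replicate 511 and 5 to 10 in each of the other 5. The median log2 fold change of the 10 genes was −0.04 with all 6 animals and −0.16 without replicate 511. Summed neuron markers were lowest in (+/−) replicate 505, at 2983 CPM, against 5235 to 6867 CPM in the other 5 animals. These cultures held neuron and astrocyte markers at high levels in every animal.

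The promoters of the 10 genes were searched for the p53 site to show what they share in sequence. Such a site is made of a pair of 10-base half-sites, and full sites were those with 0 or 1 base between the half-sites, the central C and G of each half-site intact and at most 3 mismatches. The half-site consensus reads the same on both strands, so 1 scan covered both, and an exact half-site can be part of a full site. RefSeq windows (GRCm38.p6) of 250 bases before to 50 bases after a start matched 9 of the 10 genes (13 windows), all but *Trp53inp1*. A full site was found in 5 of the 9 genes (55.6%), against 3.27% of all 27025 genes with a window and 8 of 35 other p53 targets (22.9%). An exact half-site was found in 5 of the 9 genes (55.6%), against 9.55% of all genes with a window and 9 of 35 other p53 targets (25.7%). Sequences of the sites are printed below 5′ to 3′ on the gene's strand, with the site in capitals and 20 bases on either side.
Cdkn1a: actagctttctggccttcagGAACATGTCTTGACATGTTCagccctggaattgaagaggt
Ccng1: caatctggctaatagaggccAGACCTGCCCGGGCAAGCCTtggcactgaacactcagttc
Bax: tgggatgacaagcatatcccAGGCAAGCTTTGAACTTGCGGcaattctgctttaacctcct
Bbc3: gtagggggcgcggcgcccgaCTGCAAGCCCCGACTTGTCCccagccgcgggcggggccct
Sesn1: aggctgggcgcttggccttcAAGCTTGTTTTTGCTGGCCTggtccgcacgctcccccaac
Mdm2: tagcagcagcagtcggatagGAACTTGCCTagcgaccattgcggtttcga

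The *Cdkn1a* stretch (chr17:29090908-29090967, plus strand) held a full site with 1 mismatch, 51 bases before the first of its pair of starts, which lie 2790 bases apart. A further exact half-site began 73 bases before that start, and its end is printed in lower case in the flank. The *Ccng1* stretch (chr11:40755442-40755501, minus strand) also had 1 mismatch, at 195 bases upstream. *Bax* (chr7:45467059-45467119, minus strand) had 2 mismatches and a spacer of 1 base, at 201 bases upstream. Both *Bbc3* (chr7:16309466-16309525, plus strand) and *Sesn1* (chr10:41887246-41887305, plus strand) had 3 mismatches, at 97 and 173 bases upstream. The *Bbc3* site lay before the first of its starts and the *Sesn1* site before the last, and their other windows held no site. *Mdm2* (chr10:117710915-117710964, minus strand) held an exact half-site only, and its known p53 sites lie in the first intron, outside such a window. *Phlda3*, *Eda2r* and *Fas* held neither in these windows, which says only that these letters are absent there. Of the 5 genes with a full site, *Bbc3* and *Cdkn1a* had the lowest log2 fold changes of the 10 genes, *Sesn1* the highest, and *Ccng1* and *Bax* lay near 0.

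**Figure D1:**
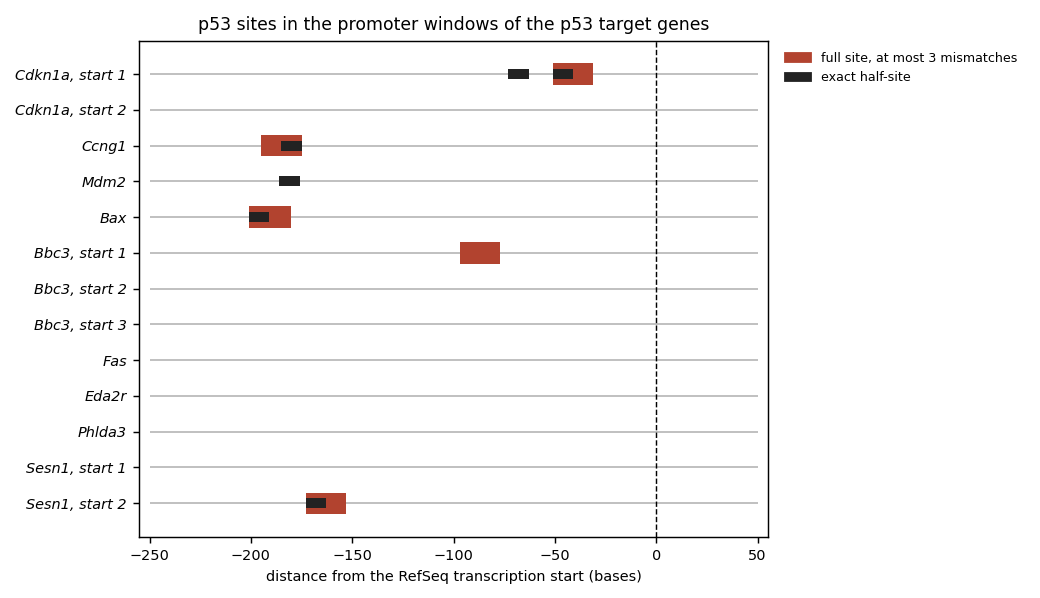
Position of p53 sites in the RefSeq promoter windows of 9 p53 target genes, by distance from the transcription start in bases (x axis), with 1 line per start. Red bars are full sites with at most 3 mismatches and black bars exact half-sites. Full sites lay in the windows of *Cdkn1a*, *Ccng1*, *Bax*, *Bbc3* and *Sesn1*.

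Read per length of exon, the 10 genes were well expressed. *Cdkn1a*, *Ccng1* and *Phlda3* averaged 130, 128 and 128 CPM per kb over the 6 animals, each above 98.4% of the tested genes, and their ranges overlapped. *Bax* followed at 51.0 CPM per kb and overlapped neither neighbour. *Trp53inp1* (27.7), *Fas* (20.7), *Mdm2* (19.9), *Bbc3* (11.5), *Sesn1* (10.2) and *Eda2r* (8.12 CPM per kb) made up the rest, each with a range over animals that overlapped the next. The lowest of them, *Eda2r*, still lay above 67.0% of the tested genes.

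Neither genotype had a p53 target gene that passed the test. edgeR's quasi-likelihood test called 0 of the 10 genes higher and 0 lower in *Myt1l* (+/−) cultures, and 0.0% of all 18264 genes in either direction. At an unadjusted p under 0.05, 1 gene was higher (*Sesn1*), where 13.2% of all tested genes were, and 1 was lower (*Bbc3*), where 9.11% were. All 3 (+/−) animals lay above all 3 (+/+) animals in *Sesn1*, as in 15.5% of all tested genes, and below them in *Bbc3*, as in 13.5%. These counts of 1 in 10 are near the background. With DESeq2 none of the 10 genes (0) was called higher, against 8.01% of all genes it adjusted, and 1 lower (*Bbc3*), against 4.57%. DESeq2 calls here and in the lists below are without a covariate unless genetic sex is named. With genetic sex as a covariate DESeq2 called 224 genes higher and 35 lower, against 1377 and 786 without it. It then called none of the 10 genes, and calls within the lists were not counted in that fit. By edgeR, log2 fold changes of the 10 genes ran from −0.54 to 0.32 with a median of −0.04, against a median of 0.00 over all tested genes. 5 were positive and 5 negative. Without (+/−) replicate 505 the split was 1 positive and 9 negative (median −0.19), and without (+/+) replicate 510 the median was 0.08.

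**Figure D2:**
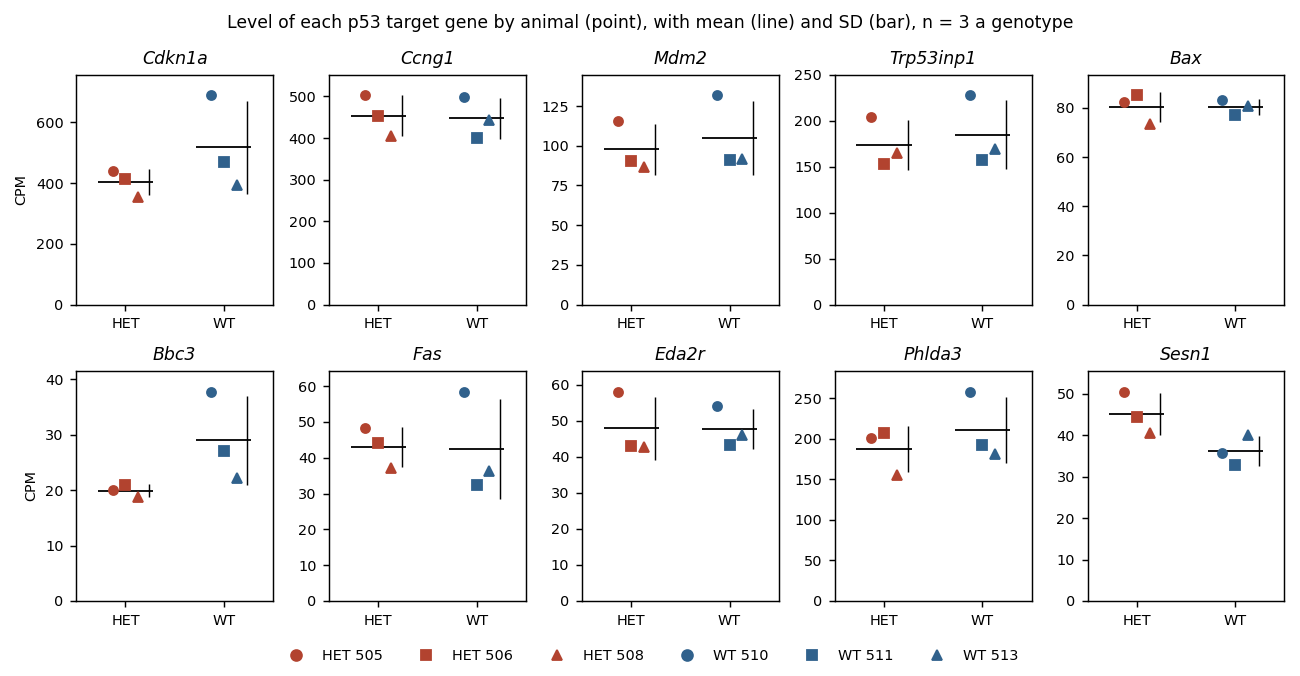
CPM (y axis, from 0) of each of the 10 p53 target genes in *Myt1l* (+/−) (HET, red, left) and (+/+) (WT, blue, right) cultures. Each point is 1 animal, the horizontal line the mean and the vertical bar the SD of 3 animals. The genotypes overlap in all panels but *Bbc3* and *Sesn1*, and WT 510 is the highest animal in 6 panels.

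*Cdkn1a* (chr17:29090976-29100727 on mm10, as are the positions that follow) encodes p21, the inhibitor of cyclin-dependent kinases that carries out most of the p53 cell cycle arrest. It was at 439, 414 and 356 CPM in (+/−) animals 505, 506 and 508, against 689, 470 and 395 CPM in (+/+) animals 510, 511 and 513. The (+/+) replicate 510 stood far above all others, and (+/+) replicate 513 lay within the (+/−) range. Means were 403 ± 42.6 CPM over (+/−) and 518 ± 153 CPM over (+/+) animals (mean ± SD, n = 3 each), and the estimated log2 fold change was −0.36 (SE, the standard error, 0.21, edgeR adjusted p = 0.30). The 95% interval, 0.559- to 1.08-fold, includes equal levels. Without replicate 510 the log2 fold change of *Cdkn1a* was −0.12 (adjusted p = 0.72).

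*Ccng1* (chr11:40748552-40755311) encodes cyclin G1, which acts in arrest and, with a phosphatase, in activating MDM2. Its levels were 502, 454 and 404 CPM in (+/−) animals and 499, 401 and 444 CPM in (+/+) animals. Both sets covered nearly the same range. Its log2 fold change was 0.02 (SE 0.13, edgeR adjusted p = 0.94), with a 95% interval of 0.822- to 1.25-fold.

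*Mdm2* (chr10:117688875-117710758) encodes the ubiquitin ligase that degrades p53, the main negative feedback of the pathway. It was at 116, 90.6 and 86.5 CPM in (+/−) animals and at 132, 91.3 and 91.6 CPM in (+/+) animals. In each genotype 1 animal, replicate 505 or 510, was above the other two, which lay close together. For *Mdm2* the log2 fold change was −0.10 (SE 0.18, edgeR adjusted p = 0.72), and the 95% interval was 0.701- to 1.24-fold.

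*Trp53inp1* (chr4:11156431-11174379) encodes a p53-induced nuclear protein that promotes p53 activity and autophagy. Its 205, 152 and 165 CPM in (+/−) animals stood beside 227, 157 and 169 CPM in (+/+) animals. As with *Mdm2*, replicates 505 and 510 were the high animals of their genotypes. Its log2 fold change was −0.09 (SE 0.17, edgeR adjusted p = 0.76).

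*Bbc3* (chr7:16308393-16318205) encodes PUMA, a BH3-only protein that neutralises BCL2 proteins and is a main trigger of neuronal apoptosis downstream of p53, though other stress pathways also induce it. *Bbc3* was at 20.1, 20.9 and 18.7 CPM in (+/−) animals, against 37.8, 27.1 and 22.1 CPM in (+/+) animals. All (+/−) animals lay below all (+/+) animals, by a margin of little more than 1 CPM at (+/+) replicate 513. Means were 19.9 ± 1.11 CPM over (+/−) and 29.0 ± 7.98 CPM over (+/+) animals (mean ± SD, n = 3 each; p = 0.1 by an exact permutation test, two-sided, the lower limit for 3 against 3 animals). The log2 fold change was −0.54 (SE 0.18, with an adjusted p of 0.18 by edgeR and 0.077 by DESeq2), an interval of 0.510- to 0.924-fold before any adjustment. Without (+/+) replicate 513 the log2 fold change of *Bbc3* was −0.71 and was called (adjusted p = 0.041 from edgeR). With genetic sex as a covariate, DESeq2 did not call *Bbc3* (−0.59, adjusted p = 0.29). In the fit without replicate 513, 5.95% of all genes were called lower and 12.3% higher. Without (+/+) replicate 510 it was −0.32 (adjusted p = 0.47 from edgeR).

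*Bax* (chr7:45461697-45466898) encodes the protein that forms pores in the mitochondrial outer membrane. It was at 82.6, 85.1 and 73.6 CPM in (+/−) animals and 83.2, 77.0 and 80.9 CPM in (+/+) animals. The means were equal to 3 digits, 80.4 ± 6.02 CPM over (+/−) and 80.4 ± 3.13 CPM over (+/+) animals (mean ± SD, n = 3 each), and the log2 fold change was 0.00 (SE 0.09, edgeR adjusted p = 1.00). Its 95% interval, 0.867- to 1.15-fold, was the narrowest of the 10 genes. An overlapping gene model on the same strand, *Gm45808* (chr7:45465984-45486811, chosen after its values were seen), held 51.4% as many counts as *Bax*. How the counting split reads between them is not stated, so the level of *Bax* is uncertain. *Gm45808* itself had a log2 fold change of 0.03 (SE 0.09).

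*Fas* (chr19:34290666-34327772) encodes the death receptor for FAS ligand. It was at 48.2, 44.0 and 37.1 CPM in (+/−) animals and 58.4, 32.4 and 36.4 CPM in (+/+) animals. The 3 (+/+) animals held both the highest and the lowest values of all 6. Its log2 fold change was 0.02 (SE 0.22, edgeR adjusted p = 0.95), the largest SE among the 10 genes, and it was 0.31 without replicate 510 (adjusted p = 0.47).

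*Eda2r* (chrX:97333840-97377216) encodes the receptor of ectodysplasin A2, a member of the tumour necrosis factor receptor family. Its 58.0, 42.9 and 42.8 CPM in (+/−) animals compared with 53.9, 43.2 and 46.1 CPM in (+/+) animals. Replicates 505 and 510 were again highest in their genotype. A log2 fold change of 0.00 was estimated (SE 0.15, edgeR adjusted p = 0.99). *Eda2r* is X-linked, and the (+/+) replicate with *Xist* counts, 511, was not apart from the others.

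*Phlda3* (chr1:135766119-135769136) encodes a pleckstrin homology protein that keeps AKT from the membrane and so weakens survival signalling. It was at 201, 207 and 155 CPM in (+/−) animals and 258, 193 and 182 CPM in (+/+) animals. The genotypes overlapped, with (+/−) replicate 508 lowest and (+/+) replicate 510 highest. On the log2 scale *Phlda3* differed by −0.17 (SE 0.17, edgeR adjusted p = 0.54), and −0.01 without replicate 510.

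*Sesn1* (chr10:41809935-41908424) encodes sestrin 1, a stress protein that restrains mTOR signalling and supports antioxidant defence. *Sesn1* was at 50.5, 44.5 and 40.5 CPM in (+/−) animals, against 35.7, 32.8 and 40.0 CPM in (+/+) animals. All (+/−) animals lay above all (+/+) animals, though replicates 508 and 513 nearly met. Means were 45.2 ± 5.03 CPM over (+/−) and 36.1 ± 3.62 CPM over (+/+) animals (mean ± SD, n = 3 each; p = 0.1 by the same exact test). The log2 fold change was 0.32 (SE 0.11, with an adjusted p of 0.19 by edgeR and 0.13 by DESeq2), an unadjusted interval of 1.04- to 1.5-fold. Without (+/+) replicate 513 it was 0.39 and was called (adjusted p = 0.084 from edgeR), in a fit that called 12.3% of all genes higher. Without (+/+) replicate 510 the log2 fold change of *Sesn1* was 0.30 (adjusted p = 0.47 from edgeR). With genetic sex as a covariate it was 0.26 in edgeR (adjusted p = 0.51) and 0.25 in DESeq2 (adjusted p = 0.58).

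**Figure D3:**
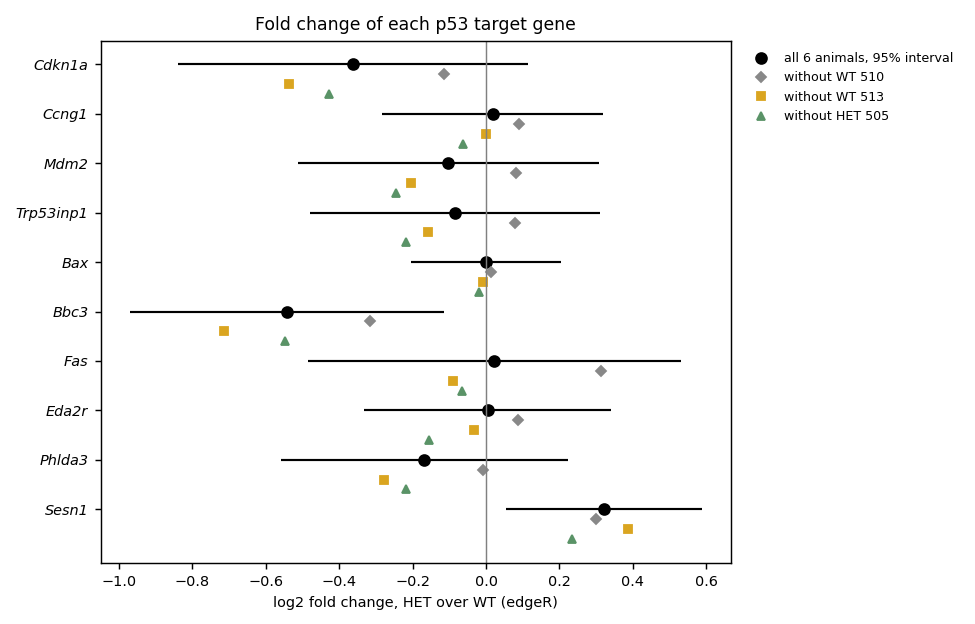
Log2 fold change of (+/−) over (+/+) cultures from edgeR (x axis) for each p53 target gene. Black points and lines are the estimates and unadjusted 95% intervals with all 6 animals, and coloured symbols the estimates with 1 named animal left out. The intervals of *Bbc3* and *Sesn1* lie to one side of 0, and *Mdm2*, *Trp53inp1*, *Bax*, *Ccng1*, *Fas* and *Eda2r* have estimates on both sides.

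In 8 of the 10 genes, all but *Bbc3* and *Sesn1*, the larger of both SDs exceeded the difference between the genotype means. Of the 10, 6 were highest in (+/+) replicate 510 and 3 in (+/−) replicate 505, whereas 6 were lowest in (+/−) replicate 508. Among all tested genes replicate 510 was highest in 18.0%, replicate 505 in 32.4%, and replicate 508 lowest in 13.4%. On the log2 scale the median deviation of the 10 genes from the mean of the 6 animals was 0.18, −0.05 and −0.16 in (+/−) animals 505, 506 and 508. It was 0.37, −0.13 and −0.08 in (+/+) animals 510, 511 and 513. By these medians replicates 505 and 510, of opposite genotypes, were the high animals. Over all tested genes their medians were 0.016 and 0.0049, and over the other p53 targets 0.11 and 0.10. *Cdkn1a*, *Bbc3* and *Fas* deviated most in replicate 510 (0.61, 0.66 and 0.47). *Sesn1* departed from this, at −0.17 in replicate 510. The median SD of the 10 genes on the log2 scale was 0.17 in (+/−) and 0.28 in (+/+) animals, against 0.15 and 0.14 over all tested genes. Replicate 510 also had the most counts and replicate 505 the lowest sum of neuron markers, and whether either bears on these levels was not tested.

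**Figure D4:**
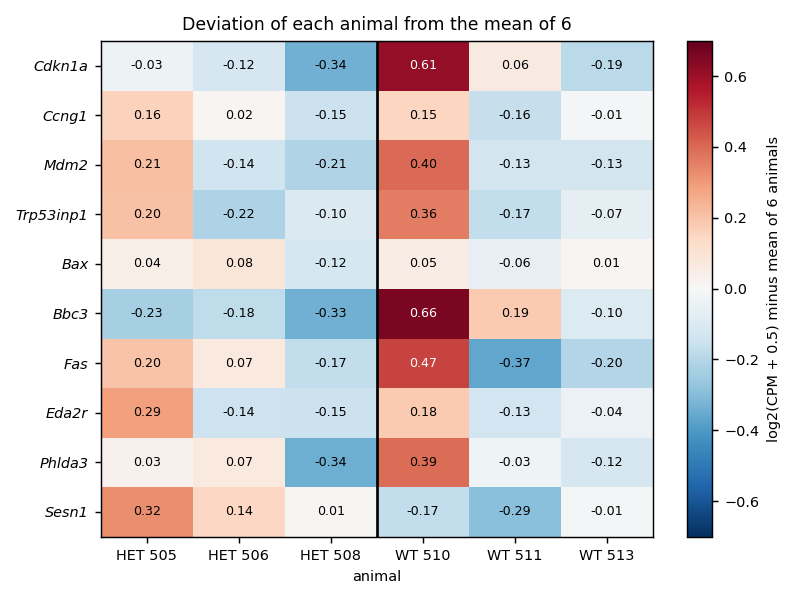
Log2(CPM + 0.5) of each p53 target gene (rows) in each animal (columns, (+/−) left of the line and (+/+) right) minus its mean over the 6 animals. Red is above and blue below the mean. Column WT 510 is red in 9 of the 10 rows, and HET 508 is blue in 9.

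The genes whose profile over the 6 animals was nearest to *Cdkn1a*, by Euclidean distance of log2 values centred on their mean, were *Sphk1* (0.11), *Ftl1* (0.12), *Gm28438* (0.14), *Gm22133* (0.14) and *Repin1* (0.16). *Gm22133* lies within *Ftl1* on the same strand, so their reads cannot be told apart. *Bbc3* was the nearest of the other 9 p53 target genes, at 0.26 and rank 42 of 18263, and *Sesn1* the farthest at 1.05, where the median over all genes was 0.85. Nearest to *Bbc3* were *Pfkfb3* (0.08), *Gm28438* (0.14), *Rhebl1* (0.15), *Foxj2* (0.16) and *Gnl3* (0.19). *Pfkfb3*, for example, was at 203, 214 and 191 CPM in (+/−) animals and 382, 275 and 212 CPM in (+/+) animals, the same order of (+/+) animals as in *Bbc3*. Distances over 6 animals describe these cultures only.

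*Trp53* itself, at 42.5, 41.4 and 33.1 CPM in (+/−) animals and 53.3, 39.0 and 39.8 CPM in (+/+) animals, differed by −0.18 on the log2 scale (SE 0.15, edgeR adjusted p = 0.47). p53 is controlled mainly at the protein level, which was not measured here. *Mdm4*, the partner of MDM2 in restraining p53, was at −0.07 (SE 0.12). Of 21 genes for p53 relatives and regulators, all were tested, 10 were positive and 11 negative, with a median of −0.04. DESeq2 called 1 of the 21 higher and 0 lower, against 8.01% and 4.57% of all genes. The 3 with the smallest p were *Trp63* and *Trp53bp2*, at log2 fold changes of 1.63 and 0.29, and *Ppp1r13l* at −0.32. *Trp63* encodes a p53 relative, *Trp53bp2* a cofactor that directs p53 to apoptotic genes and *Ppp1r13l* its inhibitory counterpart. *Trp63* was low, at 2.09, 1.47 and 1.97 CPM in (+/−) animals against 0.25, 0.45 and 1.12 CPM in (+/+) animals, and DESeq2 called it higher (adjusted p = 0.030).

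Among 43 other p53 targets, 20 had positive and 23 negative log2 fold changes, with a median of −0.01 and values from −1.31 to 1.04. edgeR called none, with 3 above and 2 below 0 at an unadjusted p under 0.05 (13.2% and 9.11% of all tested genes). DESeq2 called 3 of the 43 higher and 0 lower, no more than the 8.01% and 4.57% of all genes. Those 3 were *Trp73*, *Spata18* and *Steap3*. *Trp73*, a p53 relative that is also needed in ciliated ependymal cells, was at 20.9, 16.7 and 18.6 CPM in (+/−) animals, against 11.4, 9.01 and 11.8 CPM in (+/+) animals. All (+/−) animals were higher, as in 15.5% of all tested genes. The log2 fold change of *Trp73* was 0.80 (SE 0.14, with an adjusted p of 0.17 by edgeR and 0.00041 by DESeq2). *Spata18*, which acts in mitochondrial quality control, was at 1.04 (adjusted p = 0.0062 from DESeq2), and *Steap3*, a ferrireductase, at 0.83 (adjusted p = 0.014 from DESeq2). *Gdf15*, a secreted stress cytokine (named after its values were seen), repeated the high (+/+) replicate 510 at 35.3 CPM. It was at 9.39, 8.30 and 5.21 CPM in (+/−) animals and at 13.8 and 7.63 CPM in (+/+) replicates 511 and 513. *Aen* (−0.14) and *Zmat3* (−0.14), canonical targets chosen after their values were seen, were not called by either tool.

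The DNA damage signalling and repair list held 55 genes, all tested, of which 29 were positive and 26 negative, with a median log2 fold change of 0.04. DESeq2 called 1 of the 55 higher and 1 lower, below the shares of all genes (8.01% and 4.57%). *Ogg1*, which removes oxidised guanine from DNA, was at 28.6, 24.4 and 26.6 CPM in (+/−) animals, against 17.1, 16.6 and 22.0 CPM in (+/+) animals, with a log2 fold change of 0.51 (SE 0.13, with an adjusted p of 0.17 by edgeR and 0.024 by DESeq2). *Xrcc5*, a subunit of the Ku end-binding complex, was at 0.30 (adjusted p = 0.11 from DESeq2). *Ung*, which removes uracil from DNA, was at −0.70 (adjusted p = 0.086 from DESeq2), with (+/+) replicate 513 within the (+/−) range.

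The apoptosis lists showed members on both sides. Of 24 BCL2 family and apoptosome genes 23 were tested (not *Bik*), 13 positive and 10 negative, with a median log2 fold change of 0.02. DESeq2 called 1 of the 23 higher and 2 lower (8.01% and 4.57% of all genes). *Bid* (−0.55), which links death receptors to mitochondria, was called lower by DESeq2 (adjusted p = 0.071), and the BH3-only gene *Bmf* (0.80) higher (adjusted p = 0.0995). *Bid* was at 12.1, 15.8 and 13.8 CPM in (+/−) animals, against 23.0, 22.8 and 15.2 CPM in (+/+) animals. Replicate 513 thus lay with the (+/−) animals. *Hrk*, a neuronal BH3-only gene (named after its values were seen), had a value of −0.53 (adjusted p = 0.12 from DESeq2). In *Hrk* each (+/−) animal lay below all (+/+) animals, as in 13.5% of all tested genes.

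Of 21 genes of death receptors and their complex 18 were tested, 13 positive and 5 negative, with a median log2 fold change of 0.17. The (+/−) replicate 505 was highest in 10 of the 18 (55.6%), against 32.4% of all tested genes. Without that animal 10 were positive and 8 negative, with a median of 0.04. *Fasl*, *Tnfsf10* and *Tnf*, the ligands, were too low to be tested. DESeq2 called 3 of the 18 higher and 0 lower (8.01% and 4.57% of all genes). Among the 3 were the adaptor *Fadd* (0.71) and the kinase *Ripk1* (0.56), with adjusted p of 0.0499 and 0.064 from DESeq2. *Edar*, the ectodysplasin receptor related to *Eda2r*, was at 1.12, 0.60 and 0.89 CPM in (+/−) animals and 0.33, 0.20 and 0.42 CPM in (+/+) animals, a log2 fold change of 1.46 (adjusted p = 0.17 from edgeR and 0.032 from DESeq2).

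Of 14 paralogs of the 10 genes 13 were tested, 9 positive and 4 negative. Their median log2 fold change was 0.02, with values from −0.53 to 1.46, the highest being *Edar*. DESeq2 called 1 of the 13 higher (*Edar*) and 1 lower (*Ccng2*), against 8.01% and 4.57% of all genes. *Sesn2* (0.02), *Phlda1* (0.02), *Trp53inp2* (0.03) and *Bak1* (0.02) had adjusted p of 0.85 to 0.92 from edgeR, and *Phlda2* was too low to be tested. *Sesn3*, like *Sesn1*, had a positive value (0.31, SE 0.17, adjusted p = 0.28 from edgeR). *Tnfrsf19*, of the receptor family of *Eda2r*, was at 0.37 (adjusted p = 0.21 from edgeR). *Ccng2*, related to *Ccng1* but known to be induced without p53, was at 29.9, 32.2 and 25.1 CPM in (+/−) animals, against 49.5, 45.5 and 31.4 CPM in (+/+) animals. Its log2 fold change was −0.53 (SE 0.18, with an adjusted p of 0.18 by edgeR and 0.072 by DESeq2), with (+/+) replicate 513 inside the (+/−) range.

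The CDK inhibitor, cyclin and RB list (26 genes, 13 positive and 13 negative, median log2 fold change 0.02) was split. DESeq2 called 1 of the 26 higher and 3 lower (8.01% and 4.57% of all genes). *Cdk6*, the G1 kinase, was at 0.66 (adjusted p = 0.060 from DESeq2), and *Cdkn2d*, which inhibits it, at −0.46 (adjusted p = 0.082 from DESeq2). Without (+/−) replicate 505 *Cdk6* was at 0.39 and *Cdkn2d* at −0.31. Proliferation genes, which a p53 response lowers and which mark the cells that Ara-C kills, went mostly one way. Of 22 genes 20 had a positive log2 fold change, with a median of 0.46, and in 10 all (+/−) animals lay above all (+/+) animals (15.5% of all tested genes). edgeR called 0, with 9 higher and 0 lower at an unadjusted p under 0.05 (13.2% and 9.11% of all genes), and DESeq2 called 9 higher and 0 lower (8.01% and 4.57%). The (+/−) replicate 505, lowest in neuron markers, was highest in 19 of the 22 genes, against 32.4% of all tested genes. Without that animal 18 of the 22 had a positive log2 fold change, with a median of 0.29. *Kif11*, a spindle motor, was at 32.4, 25.0 and 32.2 CPM in (+/−) animals, against 10.3, 10.3 and 21.5 CPM in (+/+) animals (log2 fold change 1.09). *Hmmr* (0.69) and *Ccnb2* (0.91) were lower in level, at a mean of 3.40 and 1.98 CPM in (+/−) and 2.12 and 1.06 CPM in (+/+) cultures.

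Genes of Ara-C uptake and metabolism, not only those that carry or activate it, were examined because all cultures received it. Of 19 genes 17 were tested (not *Slc28a1* and *Slc28a3*), 7 positive and 10 negative, with a median log2 fold change of −0.09. DESeq2 called 1 of the 17 higher and 1 lower, against 8.01% and 4.57% of all genes. *Slc29a2*, a nucleoside transporter, was at 9.91, 13.5 and 12.3 CPM in (+/−) animals, against 22.2, 21.7 and 16.2 CPM in (+/+) animals. All (+/−) animals were lower, as in 13.5% of all tested genes. The log2 fold change of *Slc29a2* was −0.75 (SE 0.17, with an adjusted p of 0.17 by edgeR and 0.0049 by DESeq2). *Slc29a1*, the main carrier of Ara-C, was at −0.42 (adjusted p = 0.11 from DESeq2). *Dck*, the kinase that activates it (named after its values were seen), had a value of −0.32 (adjusted p = 0.18 from DESeq2). *Rrm1*, a subunit of ribonucleotide reductase, was at 0.39 (adjusted p = 0.085 from DESeq2). Drug uptake or incorporation was not measured.

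ATF4 and CHOP targets are induced by amino acid shortage and unfolded proteins, and *Sesn2* and *Gdf15* belong to this list as well as to the p53 targets. Of 23 genes 22 were tested, with *Ddit3* as a pair of features. Of these 8 values were positive and 15 negative, with a median log2 fold change of −0.42, and DESeq2 called 0 higher and 9 lower (8.01% and 4.57% of all genes). *Atf4* was at 79.8, 86.8 and 84.3 CPM in (+/−) animals, against 139, 116 and 99.0 CPM in (+/+) animals (log2 fold change −0.50, adjusted p = 0.022 from DESeq2). *Slc7a5* (−0.49), an amino acid carrier, and *Stc2* (−0.64), a secreted glycoprotein, were called lower by DESeq2 too (adjusted p = 0.0067 and 0.022).

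**Figure D5:**
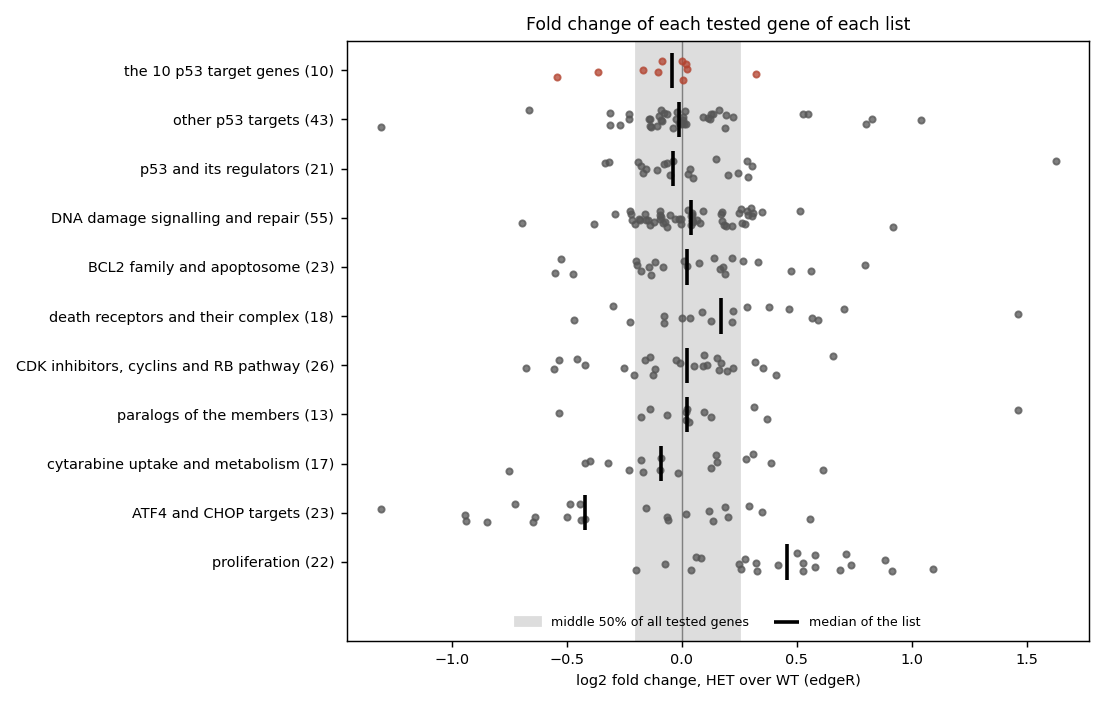
Log2 fold change of (+/−) over (+/+) cultures (x axis) of each tested gene in 11 lists, 1 point per gene, with the number tested in brackets. Vertical bars are list medians and the grey band holds the middle 50% of all tested genes. The medians of the 10 p53 target genes (red, −0.04) and of the other p53 targets (−0.01) lie inside the band, those of ATF4 and CHOP targets (−0.42) and of proliferation genes (0.46) outside it.

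Markers of other cells differed between the genotypes beside these values. In bulk RNA, fewer cells of a type and less RNA per cell cannot be told apart. Summed neuron markers were at 2983, 5235 and 5790 CPM in (+/−) animals and 6237, 6867 and 5809 CPM in (+/+) animals, and 16 of 16 had a negative log2 fold change. Ependymal markers summed to 1188 to 1403 CPM in (+/−) and 647 to 920 CPM in (+/+) animals. All 10 were higher in every (+/−) animal than in any (+/+) animal, as were 15.5% of all tested genes. Choroid plexus markers summed to 1556, 732 and 398 CPM in (+/−) animals 505, 506 and 508, and to 88.6 to 274 CPM in (+/+) animals. Microglia markers summed to 295, 160 and 155 CPM in the same (+/−) animals and 108 to 145 CPM in (+/+) animals. All (+/−) animals lay above all (+/+) animals in 7 of 10 choroid plexus and 7 of 12 microglia markers, and below them in 1 and 0. Oligodendrocyte lineage markers summed to 276 to 327 CPM in (+/−) and 189 to 271 CPM in (+/+) animals, with 6 of 8 tested markers positive and *Sox10* and *Mog* too low to be tested. Meningeal fibroblast markers overlapped (461 to 1842 CPM in (+/−), 229 to 938 CPM in (+/+) animals), with (+/−) replicate 505 highest in 10 of 10. Endothelial markers overlapped too (63.6 to 138 CPM in (+/−), 61.0 to 68.1 CPM in (+/+) animals), as did astrocyte markers (12980 to 14340 CPM in (+/−), 9264 to 14020 CPM in (+/+) animals). No marker gene of these lists had 0 counts in all 6 animals. Their part in the values of the p53 target, repair and proliferation genes was not tested.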

How the data were processed

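Raw counts of each library were deposited by the authors, whose reads, from strand-marked libraries, were aligned to mm10 with STAR. No source used here names the counting tool. They also deposited a signal per animal, counts divided by a DESeq2 size factor, which equalled the summed raw counts over a constant within 0.1% and was used only as this check. Their table of fold changes and p-values was not used.

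The 2 libraries of each animal were added up, and 3 (+/−) were compared with 3 (+/+) animals in R 4.3.3 with edgeR 4.0.16 (filterByExpr, TMM, quasi-likelihood test, Benjamini-Hochberg adjustment over 18264 genes). The authors used genetic sex as a covariate and DESeq2. Here no covariate was used, because all animals are labelled male, although *Xist* counts set replicate 511 apart. Values quoted from DESeq2 are without a covariate unless genetic sex is named. DESeq2 1.42.0, limma 3.58.1 and other filters, scalings, libraries and animals were tried as alternatives. The test was checked on simulated data. Members and lists were chosen with earlier results of these data known. Besides the 10 genes, *Trp53*, *Mdm4*, 8 paralogs, up to 3 genes of smallest p per list and the 5 nearest profiles were named, and exceptions are marked. A gene that this rule names is not reported here. Sequences are from RefSeq.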

Additional observations from a re-analysis of the deposited data

How the results depend on the processing

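With 3 animals per genotype the calls depended on the tool and on single animals. edgeR called 0 genes in either direction (2416 higher and 1664 lower at an unadjusted p under 0.05). DESeq2 called 1377 genes higher and 786 lower, of the p53 target genes 0 and 1. DESeq2 with genetic sex called 224 and 35, and 0 of the 10 genes (*Bbc3* adjusted p = 0.29), and edgeR without the low-count filter 1021 and 454, with 1 of the 10 genes lower. Leaving out 1 animal gave 0 to 2294 genes higher and 0 to 1109 lower, and 0 to 1 of the 10 genes in each direction, the calls coming without (+/+) replicate 513. Libraries are not independent animals. Treating the 12 libraries as samples gave 4006 genes higher and 3571 lower with the library number as a replicate block (1 and 2 of the 10 genes) and 4244 and 3866 without the block (1 and 2). The library number does not pair animals, as same-numbered libraries across genotypes correlated at a median r of 0.045 and others at 0.047. With the block, log2 fold changes were −0.36 for *Cdkn1a* (adjusted p = 0.083), −0.54 for *Bbc3* (0.017) and 0.33 for *Sesn1* (0.016). Without it they were −0.36 (0.066), −0.54 (0.011) and 0.33 (0.010). *Bbc3* was at −0.55 with DESeq2 (0.077) and −0.55 without the low-count filter (0.090).

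With 1 animal left out, log2 fold changes ran from −0.54 to −0.12 for *Cdkn1a*, −0.71 to −0.32 for *Bbc3*, 0.23 to 0.39 for *Sesn1*, −0.28 to −0.0094 for *Phlda3*, −0.24 to 0.082 for *Mdm2*, −0.22 to 0.080 for *Trp53inp1*, −0.062 to 0.089 for *Ccng1*, −0.16 to 0.088 for *Eda2r*, −0.055 to 0.054 for *Bax* and −0.14 to 0.31 for *Fas*. They ran from −0.21 to 0.0098 for *Mdm4*, −0.040 to 0.068 for *Sesn2*, −0.051 to 0.058 for *Phlda1*, −0.033 to 0.071 for *Trp53inp2*, −0.020 to 0.049 for *Bak1* and −0.023 to 0.10 for *Gm45808*. Values near 0 changed sign in other settings as well, and the cause was not tested. With genetic sex in edgeR they were −0.056 for *Ccng1*, −0.063 for *Eda2r*, −0.030 for *Bax*, −0.14 for *Fas*, −0.038 for *Sesn2*, −0.0056 for *Phlda1*, −0.0076 for *Bak1* and −0.0082 for *Gm45808*. With genetic sex in DESeq2 they were −0.061 for *Ccng1*, −0.068 for *Eda2r*, −0.034 for *Bax*, −0.14 for *Fas*, −0.042 for *Sesn2*, −0.010 for *Phlda1*, −0.012 for *Bak1* and −0.012 for *Gm45808*. From library 1 alone they were −0.00021 for *Ccng1* and −0.00034 for *Fas*. From library 2 alone they were −0.0084 for *Eda2r*, −0.025 for *Bax*, −0.015 for *Sesn2*, −0.027 for *Phlda1*, −0.0070 for *Bak1* and −0.012 for *Gm45808*. With DESeq2's size factors they were −0.0059 for *Eda2r* and −0.010 for *Bax*. Without the low-count filter they were −0.0076 for *Eda2r* and −0.0099 for *Bax*. With DESeq2 they were −0.0059 for *Eda2r* and −0.010 for *Bax*. With limma voom they were −0.0038 for *Eda2r* and −0.0018 for *Bax*.

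Only replicate 511 carries the other genetic sex, so that covariate takes it out of the comparison. The cultures were not measured without Ara-C.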
